A study of Mus musculus with 30 samples.

Results

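The 7 genes described here encode secreted antimicrobial and acute-phase proteins of the inflamed gut: both subunits of calprotectin (S100a8 and S100a9), lipocalin-2 (Lcn2), lactoferrin (Ltf) and 3 serum amyloid A proteins (Saa1, Saa2 and Saa3). They were found by their gene symbols, 7 of 31023 genes in a count table of bulk RNA from mouse colon, and all 7 passed the filter on low counts that left 19558 genes for testing. The 30 libraries form 10 groups of 3, from male C57BL/6 wild-type mice and Smox-/- mice, mutant for spermine oxidase, the enzyme that turns spermine into spermidine. All mice were 8 to 12 weeks old by their labels and all tissue was taken at day 56. Within each genotype there were 4 non-tumor conditions: untreated; spermidine alone, at 14 mM in the drinking water for the 56 days; AOM-DSS, which was 12.5 mg/kg of the carcinogen azoxymethane into the peritoneum and then 3 cycles of 4% dextran sulfate sodium of 5 days each, begun at days 5, 26 and 47; and AOM-DSS together with spermidine. Tumor tissue made up the last 2 groups, from wild-type mice given AOM-DSS and spermidine and from Smox-/- mice given AOM-DSS without spermidine. Tumors of the opposite treatments (wild type without spermidine, Smox-/- with it) are not analysed here, so the tumor groups differ in genotype and in spermidine at once, and the labels leave unstated which stretch of Smox the mutation removes and whether any mouse gave both kinds of tissue.

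Calprotectin is the calcium-binding heterodimer that fills the cytosol of neutrophils and withholds zinc and manganese from bacteria. Lipocalin-2 binds bacterial siderophores and lactoferrin binds iron itself; both are stored in neutrophil granules and are also made by epithelial cells. Serum amyloid A proteins bind retinol and lipids, and are made in the liver in the acute phase and in the gut by epithelial cells that meet microbes; in mice Saa3 is also made by macrophages and fat cells. Fecal calprotectin, lipocalin-2 and lactoferrin serve as measures of intestinal inflammation.

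Library totals ran from 33060607 to 81011304 counts. Levels are given as CPM, a gene's share of its library's counts scaled by the trimmed mean of M-values. Smox itself did not separate the untreated genotypes (26.7, 25.1 and 27.6 CPM in wild type; 28.7, 36.2 and 27.4 CPM in Smox-/-), so genotype is used as labelled there. The treated non-tumor groups were apart under spermidine (43.7 to 49.4 CPM in wild type, 18.6 to 26.7 CPM in Smox-/-) and under AOM-DSS (41.8 to 50.7 and 26.1 to 35.9 CPM). With both treatments wild type held 46.6 to 54.1 CPM, and the libraries labelled Smox-/- 63.1, 23.2 and 35.0 CPM. In tumors Smox stood at 123 to 169 CPM in wild type and at 44.0 to 68.7 CPM in Smox-/-. The 63.1 CPM of the first Smox-/- library with both treatments lay above wild type of that condition and within the Smox-/- tumor range. Colonic epithelial markers summed to between 11930 and 52100 CPM in every library. A pair of libraries stood apart from their labels. In untreated wild-type replicate 3, skeletal muscle markers summed to 9312 CPM and the Hox genes of the distal hindgut to 11.8 CPM, against at most 1636 CPM and at least 67.3 CPM in the other 29 libraries. In the library labelled Smox-/- AOM-DSS spermidine non-tumor replicate 1, the one at 63.1 CPM of Smox, Wnt target genes of tumor epithelium summed to 1242 CPM, within the range of the tumors (199.7 to 4136 CPM) and above the other 23 non-tumor libraries (25.6 to 247 CPM). It is called the tumor-like library below. A wild-type AOM-DSS non-tumor library at 247 CPM also lay above the lowest tumor, a Smox-/- library at 199.7 CPM. That wild-type library was not counted in the pair and stayed in the fits without both. For the antimicrobial and acute-phase genes described here, calls that rest on either are given with and without both. Calls in the marker and pathway lists below are given with all libraries only. In bulk tissue, fewer cells of a type and less RNA per cell cannot be told apart.

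The genes lie in 4 places of the GRCm38 genome. S100a8 (chromosome 3, 90668978 to 90670035, plus strand) and S100a9 (chromosome 3, 90692632 to 90695721, minus strand) point towards each other across 22.6 kb. Lcn2 lies on chromosome 2 (32384633 to 32388252, minus strand) and Ltf on chromosome 9 (111019271 to 111042767, plus strand). Saa1 (chromosome 7, 46740497 to 46742980, minus strand) and Saa2 (46751790 to 46754313, plus strand) point away from each other across 8.8 kb, and Saa3 (46711998 to 46715700, minus strand) lies 24.8 kb from Saa1. The stretches of promoter below, from 200 to 51 bases before each RefSeq start site (RefSeq, GRCm38.p6, 5′ to 3′ on the gene's strand), are shown because Saa1 and Saa2 kept their proportion in these libraries and Saa3 did not follow them. Capitals mark matches on either strand to TTNNGNAA, a form of the C/EBP motif. They lie at chr7:46743031-46743180 (Saa1, minus strand), chr7:46751633-46751782 (Saa2, plus strand) and chr7:46715727-46715876 (Saa3, minus strand).
Saa1: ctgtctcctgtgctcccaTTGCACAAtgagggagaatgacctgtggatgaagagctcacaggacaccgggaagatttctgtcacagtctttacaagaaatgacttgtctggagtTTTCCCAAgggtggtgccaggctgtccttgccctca
Saa2: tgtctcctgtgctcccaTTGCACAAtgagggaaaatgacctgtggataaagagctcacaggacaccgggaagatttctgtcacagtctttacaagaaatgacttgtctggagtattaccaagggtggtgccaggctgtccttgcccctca
Saa3: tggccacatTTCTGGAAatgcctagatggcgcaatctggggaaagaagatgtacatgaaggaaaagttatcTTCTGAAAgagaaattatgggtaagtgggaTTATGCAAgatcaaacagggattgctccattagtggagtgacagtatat

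Over the 250 bases before the start site, Saa1 and Saa2 were identical at 94.8% of aligned positions, whereas Saa3 was identical to Saa1 at 48.9%. In the coding transcripts Saa1 and Saa2 were identical at 87.3%, and 44.4% of the stretches of 31 bases in Saa2 transcripts also occur in Saa1. Counts of this pair therefore depend on how reads were divided between near-identical copies, and Saa2 values are uncertain for that reason. All 7 genes matched a promoter entry, and all 7 held at least 1 TTNNGNAA match in those 250 bases, as did 36.8% of the 32851 promoters in the table. A STAT motif (TTCNNNGAA, in 7.02% of promoters), an AP-1 motif (TGANTCA, 6.75%) and the NF-kB consensus (3.9%) matched in none of the 7, on either strand. A match or its absence is a description of these letters only.

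The plot of levels by library gives every value. Saa1 was the most abundant of the 7 per unit length in these colons. Its median over the 30 libraries was 516.4 CPM per kilobase, against medians of 1.64 to 8.03 for the other 6. Length here is that of all exons of a gene's protein-coding transcripts, untranslated parts included. It was 0.609 kb for Saa1 and 2.606 kb for Saa3, so the Saa3 value depends on that annotation. Saa1 and Saa2 spanned narrower ranges than the other 5 genes: on the log2 CPM scale S100a9 covered 11.29, S100a8 10.94, Saa3 10.93, Ltf 10.55, Lcn2 8.64, Saa1 4.56 and Saa2 3.81. Group membership accounted for 53.9% (Saa3) to 78.1% (Lcn2) of the variance of log2 CPM. These shares were not adjusted for fitting 10 group means to 30 libraries, which by itself gives a sizeable share. Ordered by mean, neighbouring groups overlapped in their ranges for every gene, with 2 exceptions at the low end. Untreated wild type lay below the next group for Ltf, and wild-type AOM-DSS spermidine non-tumor tissue lay below the next group for Saa3.

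**Figure D1:**
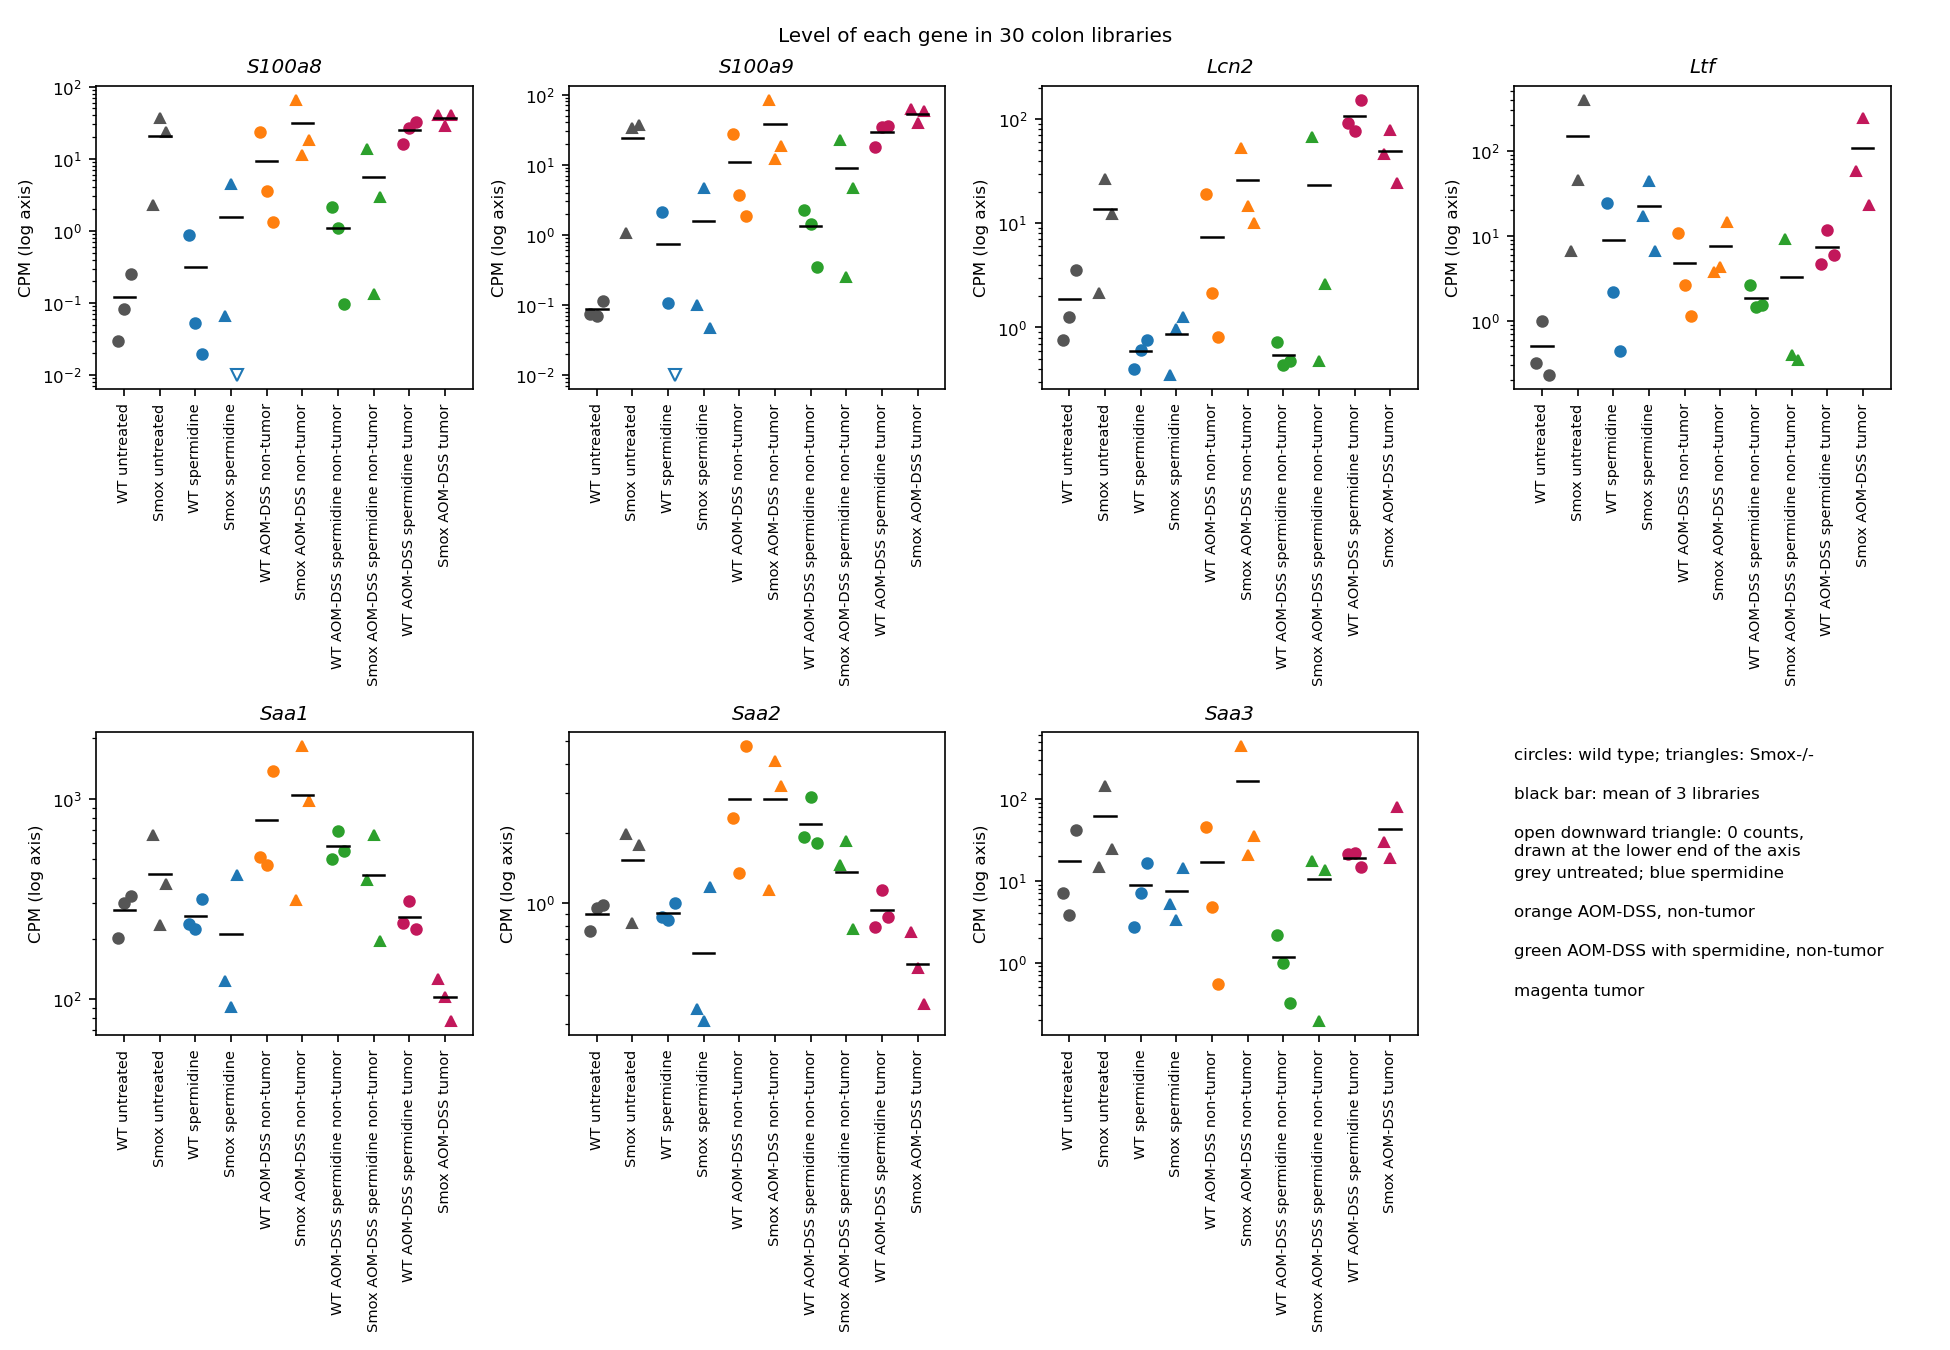
CPM of each of the 7 genes on a log axis in 30 colon libraries, by group; points are single libraries (circles wild type, triangles Smox-/-), bars are means of 3, and an open downward triangle marks a library with 0 counts, drawn at 0.01. The means of S100a8 and S100a9 are lowest in untreated wild type and highest in Smox-/- AOM-DSS tissue and tumors. The means of Saa1 and Saa2 are lowest in the Smox-/- tumors.

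Both calprotectin subunits were close to absent from untreated wild-type colon. S100a8 stood at 0.0293, 0.0832 and 0.250 CPM there, which is 21 counts over 3 libraries, and S100a9 at 0.0732, 0.0694 and 0.115 CPM. In the untreated Smox-/- libraries S100a8 was 2.28, 37.2 and 23.5 CPM and S100a9 was 1.07, 32.8 and 37.0 CPM, above every untreated wild-type library. After AOM-DSS, wild-type non-tumor colon held 23.4, 3.54 and 1.32 CPM of S100a8 and Smox-/- non-tumor colon 65.9, 11.2 and 18.1 CPM, so that replicate 1 was highest in each group and the groups overlapped. With spermidine alone the wild-type values were 0.875, 0.0527 and 0.0192 CPM and the Smox-/- values 0.0668, 4.53 and 0 CPM. With AOM-DSS and spermidine they were 2.12, 1.10 and 0.0952 CPM in wild type and 13.7, 0.134 and 2.94 CPM in Smox-/-. The tumor groups were the least variable: 16.2, 26.6 and 32.3 CPM in wild type and 40.8, 28.5 and 40.6 CPM in Smox-/-. S100a9 followed the same order in its group means, up to 53.3 ± 12.5 CPM (SD, n = 3) in the Smox-/- tumors.

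S100a8 and S100a9 kept their proportion. In the 21 libraries with at least 10 counts of both, the ratio of their CPM had a median of 0.781 and ranged from 0.410 to 2.13. Across all 30 libraries their log2 CPM correlated at r = 0.99 (Spearman 0.98), and at 0.96 after subtraction of group means; this describes libraries that share their depth scaling and their tissue.

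Lcn2 was highest in tumors. It stood at 92.4, 77.3 and 153 CPM in the wild-type tumors and at 46.5, 78.3 and 24.5 CPM in the Smox-/- tumors, ranges that overlapped. Untreated wild type held 0.762, 1.26 and 3.56 CPM. Non-tumor tissue of wild-type mice on AOM-DSS and spermidine had the lowest mean, at 0.719, 0.438 and 0.476 CPM, and overlapped both groups of spermidine alone. Its counterpart in Smox-/- mice held 67.4, 0.479 and 2.60 CPM, and the highest of these is the library with tumor-like Wnt targets. Without spermidine, AOM-DSS tissue had 19.2, 2.16 and 0.809 CPM in wild type and 53.3, 14.6 and 10.1 CPM in Smox-/-, again with replicate 1 highest in both. Untreated Smox-/- colon held 2.14, 26.6 and 12.4 CPM. The 6 libraries of spermidine alone lay between 0.350 and 1.25 CPM, under every untreated library of the same genotype; 21.7% of all genes in wild type and 21.1% in Smox-/- had no overlap in these comparisons. Lcn2 did not keep its proportion to S100a8: the ratio was 2.91 to 5.70 in the wild-type tumors and 0.611 to 0.822 in wild-type AOM-DSS tissue without spermidine.

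Ltf had a different order, with its highest group mean in untreated Smox-/- colon. Values there were 6.58, 45.9 and 398 CPM, against 0.322, 0.985 and 0.231 CPM in untreated wild type. The Smox-/- tumors held 57.1, 242 and 22.8 CPM, above the wild-type tumors at 4.67, 11.7 and 5.99 CPM. Spermidine alone gave 24.3, 2.16 and 0.443 CPM in wild type and 16.9, 44.2 and 6.54 CPM in Smox-/-. The 12 non-tumor AOM-DSS libraries lay between 0.343 and 14.7 CPM.

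Squamous epithelial markers, which are keratins and cornified envelope genes of the anal and skin epithelium, moved with Ltf, as the plot of marker sums shows. The 17 markers summed to 3392 CPM in untreated Smox-/- replicate 3, the library with 398 CPM of Ltf, while the other untreated libraries held 22.8 to 160 CPM. Smox-/- spermidine replicate 2 (882 CPM of markers), wild-type spermidine replicate 1 (398 CPM) and Smox-/- tumor replicates 2 and 1 (693.5 and 563 CPM) also had the highest Ltf of their groups, and tumor replicate 3 had the lowest marker sum (93.8 CPM) and the lowest Ltf of its group. The part of squamous tissue in the Ltf values was not tested. Over the 30 libraries log2 CPM of Ltf and of the marker sum correlated at 0.71, and at 0.66 within groups; S100a8 and the marker sum correlated at 0.29 and at 0.62 within groups.

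**Figure D2:**
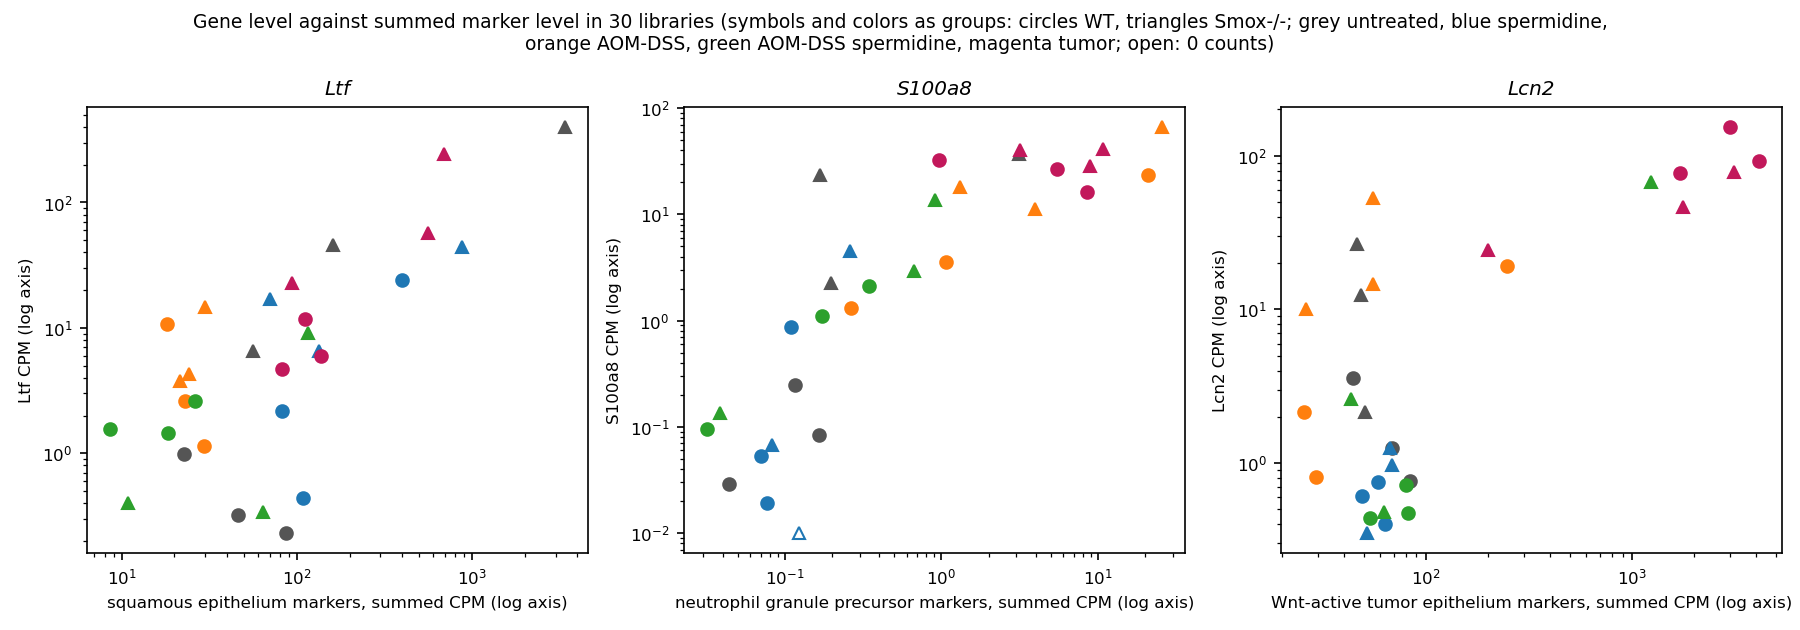
CPM of Ltf, S100a8 and Lcn2 (log axes) against the summed CPM of squamous epithelial, neutrophil granule precursor and Wnt-active tumor markers in 30 libraries (circles wild type, triangles Smox-/-, colors by treatment, open symbols 0 counts). The library with the highest Ltf, at 398 CPM, also has the highest squamous sum, at 3392 CPM.

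Neutrophil markers did not all move alike. Of the 11 mature neutrophil markers in the table, Cd177 and Ly6g were by far the most abundant, and in wild-type tumors they averaged 375 and 77.4 CPM against 578 and 118 CPM in non-tumor tissue of the same treatment, where S100a8 was lower than in the tumors. The other 9 had higher means in those tumors than in that non-tumor tissue, and higher means in untreated Smox-/- than in untreated wild type. Among them Csf3r, the G-CSF receptor, averaged 0.210 CPM in untreated wild type, 4.68 CPM in untreated Smox-/-, 0.518 CPM in wild-type AOM-DSS spermidine non-tumor tissue and 2.76 CPM in wild-type tumors. The summed level of all 11 ranged from 12.8 to 1226 CPM and correlated at 0.38 with S100a8 (-0.06 within groups), and at 0.24 (-0.18 within groups) without Cd177. Ly6g made up most of the sum without Cd177, with means of 59 of 60.9 CPM in untreated wild type and 69.4 of 107 CPM in Smox-/- tumors. These sums therefore do not describe the other 9. The 9 granule genes of neutrophil precursors, of which 4 passed the filter, summed to 0.0439 to 0.166 CPM in untreated wild type and to 20.98 and 25.7 CPM in replicate 1 of the AOM-DSS groups without spermidine, which are also the S100a8 maxima of those groups. That sum was carried by Chil3, a chitinase-like gene that macrophages also express (15.5 and 20 CPM at most in those groups), and Ngp (4.61 and 5 CPM). The defining genes Mpo, Elane, Ctsg, Ms4a3 and Fcnb stayed at or under 0.134 CPM in every library, and Prtn3 and Camp at or under 0.578 CPM. The sum correlated at 0.82 with S100a8 (0.57 within groups), and the summed monocyte and macrophage markers at 0.8 (0.43 within groups). With Lcn2 the granule sum correlated at 0.83 (0.68 within groups) and the monocyte and macrophage sum at 0.81 (0.64 within groups). The Wnt-active tumor marker sum correlated with Lcn2 at 0.72 (0.71 within groups). The share of neutrophils in these results was not tested.

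Saa1 was present in every library. Untreated wild-type colon held 202, 303 and 329 CPM and untreated Smox-/- colon 663, 233 and 373 CPM. AOM-DSS tissue held 513, 469 and 1369 CPM in wild type and 313, 1829 and 973 CPM in Smox-/-; with spermidine added it held 502, 694 and 551 CPM and 392, 659 and 196 CPM. In wild-type non-tumor colon the AOM-DSS libraries lay above those without AOM-DSS, both without and with spermidine. Of all genes 21.5% and 36.4% had no overlap in these comparisons, in either direction. Spermidine alone gave 236, 224 and 316 CPM in wild type and 124, 91.4 and 417 CPM in Smox-/-. Tumors held 241, 308 and 223 CPM in wild type and 126, 103 and 77.2 CPM in Smox-/-, and the Smox-/- tumors lay below the wild-type tumors without overlap.

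Saa2 repeated this pattern at a far lower level. It ranged from 0.308 CPM in Smox-/- spermidine replicate 2 to 4.76 CPM in wild-type AOM-DSS replicate 3, and the ratio of Saa1 to Saa2 had a median of 280.3 over the 30 libraries, with a lowest value of 168.1 and a highest of 444.7. Saa1 itself ranged from 77.2 to 1829 CPM, so the ratio varied 2.65-fold over the libraries while the level varied far more. The 3 Smox-/- tumors had ratios of 168.1 to 210.3 and the other 27 libraries 208.7 or more. Saa1 and Saa2 correlated at 0.97 over the libraries and at 0.95 within groups; the part of shared reads in this was not tested.

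Saa3 did not follow them. Its highest values were 439 CPM in Smox-/- AOM-DSS replicate 1 and 144 CPM in untreated Smox-/- replicate 2, and these are the replicates with the highest Lcn2 of their groups. The remaining Smox-/- AOM-DSS libraries held 20.9 and 35.2 CPM and the remaining untreated Smox-/- libraries 14.9 and 24.7 CPM. Wild-type AOM-DSS tissue held 45.6, 4.85 and 0.545 CPM, and with spermidine 2.21, 0.985 and 0.318 CPM, the group with the lowest mean. Untreated wild type held 7.06, 3.84 and 41.2 CPM, of which the last is the library rich in skeletal muscle RNA. Adipocyte markers in that library summed to 69.1 CPM, the highest of all 30. Over the 30 libraries Saa3 and the adipocyte sum correlated at 0.31 (0.59 within groups). The part of fat cells in the Saa3 values was not tested. Over the libraries Saa3 correlated at 0.71 with Lcn2 (0.75 within groups) and at -0.29 with Saa1 (-0.49 within groups). Spermidine alone gave 2.72, 7.17 and 16.7 CPM in wild type and 5.14, 3.30 and 14.3 CPM in Smox-/-, and AOM-DSS with spermidine gave 17.4, 0.191 and 13.5 CPM in Smox-/-. Tumors held 21.3, 21.9 and 14.6 CPM in wild type and 29.6, 19.0 and 79.3 CPM in Smox-/-, and overlapped. The ratio of Saa3 to Saa1 ran from 0.000291 to 1.40.

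**Figure D3:**
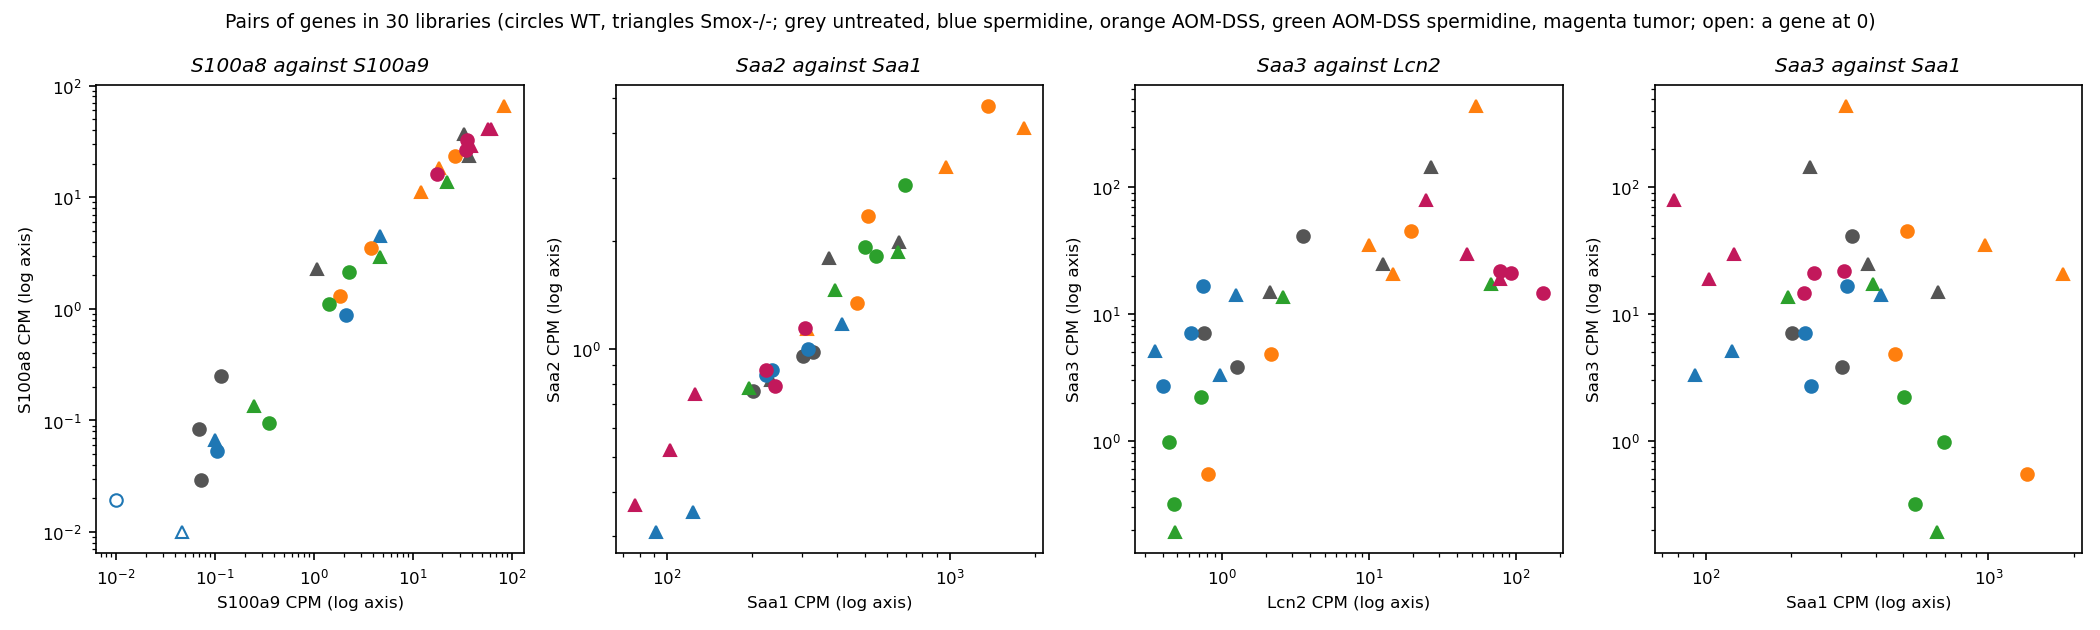
CPM of 4 pairs of genes on log axes in 30 libraries (circles wild type, triangles Smox-/-, colors by treatment, open symbols where a gene has 0 counts, drawn at 0.01). S100a8 with S100a9 (r = 0.99) and Saa1 with Saa2 (0.97) lie along lines, Saa3 rises loosely with Lcn2 (0.71) and not with Saa1 (-0.29).

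Changes were tested with edgeR's quasi-likelihood test in 1 model of the 10 groups, with Benjamini-Hochberg adjustment over all 19558 genes. At least 1 of the 7 genes passed an adjusted p of 0.05 in 6 of 21 comparisons, and the plot of changes shows these and the mean effect of spermidine. Where p-values are given they rest on the spread between mice within groups, since the series names 3 mice per group and no batch. That spread was 1 estimate per gene over all 10 groups, shared in part between genes, and not that of the compared groups alone.

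**Figure D4:**
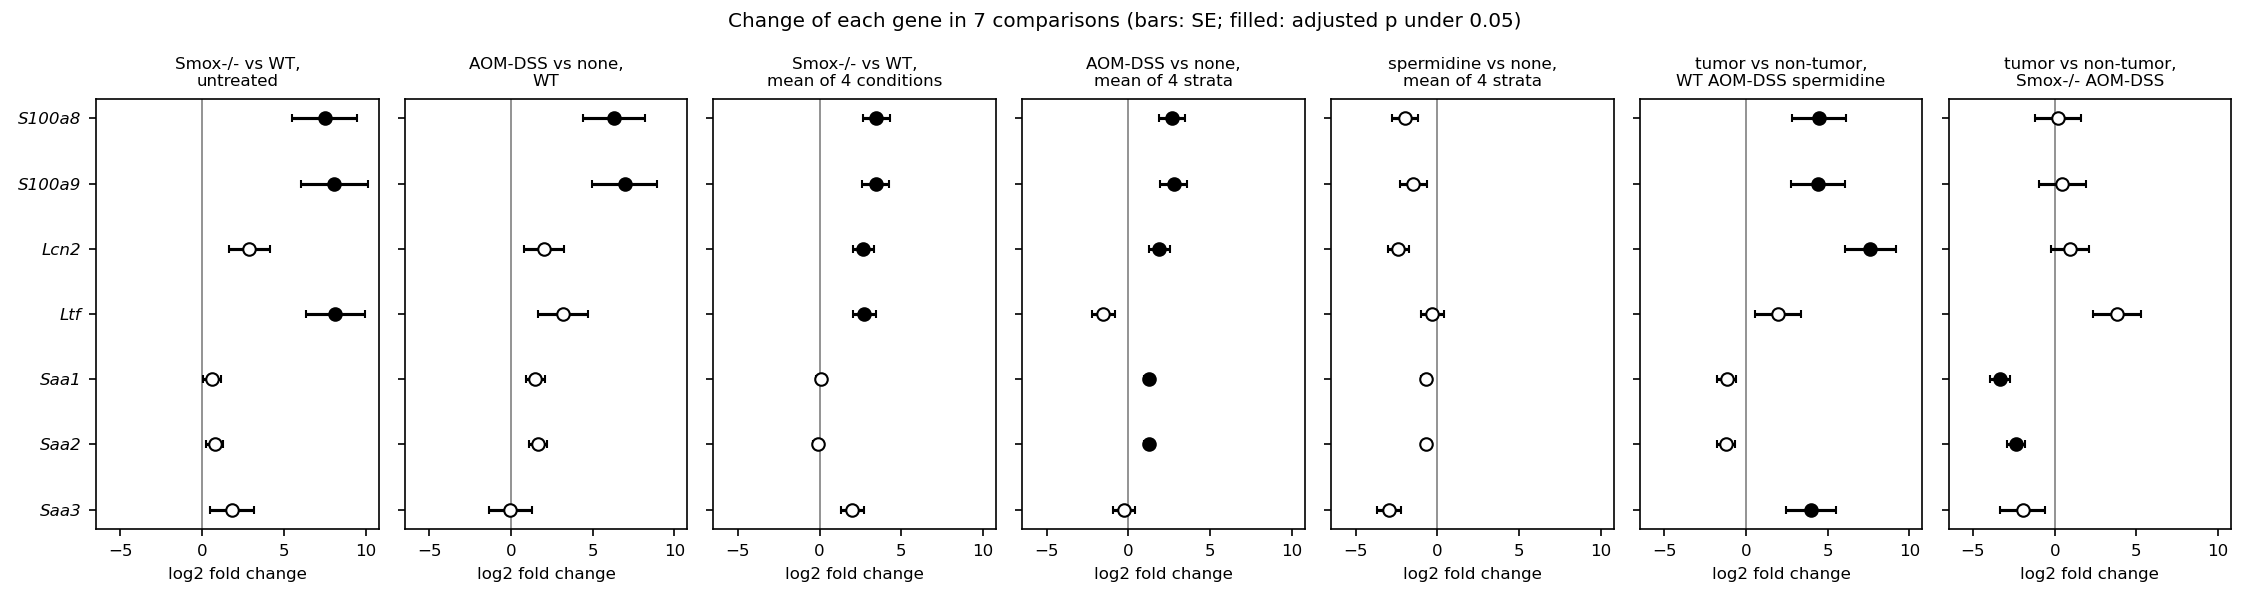
log2 fold change of each gene in 7 comparisons; bars are standard errors and filled circles passed an adjusted p of 0.05. Saa1 and Saa2 sit above 0 in the mean AOM-DSS effect and below 0 in both tumor comparisons, where Lcn2 lies furthest to the right in wild type.

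AOM-DSS, averaged over both genotypes with and without spermidine in non-tumor colon, raised 5 of the 7 genes. Saa1 rose by 1.24 on the log2 scale (SE 0.29, adjusted p = 0.00462) and Saa2 by 1.24 (SE 0.27, adjusted p = 0.00258). S100a8 rose by 2.66 (SE 0.80, adjusted p = 0.022), S100a9 by 2.77 (SE 0.81, adjusted p = 0.0188) and Lcn2 by 1.90 (SE 0.63, adjusted p = 0.0346). Ltf and Saa3 did not pass (log2 changes of -1.53 and -0.25, adjusted p of 0.121 and 0.827). Of all genes 20.9% were called here, with a median log2 change of 0.0049 against 1.24 for the 7. Both Saa genes passed in each of 24 fits that left out 1 library. Without both libraries that stood apart, Saa1 (1.30) and Saa2 (1.26) passed, while S100a8 (2.45, adjusted p = 0.0595), S100a9 (2.36, adjusted p = 0.0705) and Lcn2 (1.14, adjusted p = 0.148) did not, and Ltf fell by 2.39 (adjusted p = 0.0338). The 4 strata differed in size, and the call was of their mean. For Lcn2 the log2 changes were 2.0 in wild type, 0.92 in Smox-/-, -0.10 in wild type on spermidine and 4.77 in Smox-/- on spermidine, the stratum that holds the tumor-like library. For S100a8 they were 6.33, 0.60, 1.83 and 1.87 in the same order, for Saa1 1.5, 1.30, 1.17 and 0.98, and for Saa2 1.64, 0.88, 1.28 and 1.15. Within single strata the calls were those of S100a8 and S100a9 in wild type without spermidine. Leaving out 1 library at a time, S100a8 lost its call without wild-type AOM-DSS replicate 1 (2.17, adjusted p = 0.0519) or the tumor-like library (2.19, adjusted p = 0.0553). Lcn2 kept its call in 13 of 24 such fits; it was lost without these same libraries (1.31, adjusted p = 0.115, and 0.92, adjusted p = 0.212) and without 9 others (adjusted p up to 0.0779). Mature neutrophil markers rose in 7 of 11 genes and squamous markers fell in 13 of 17 in the same comparison.

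In wild type without spermidine, AOM-DSS raised both calprotectin genes from levels near 0. S100a8 rose by 6.33 (SE 1.91, adjusted p = 0.0486) and S100a9 by 6.98 (SE 1.99, adjusted p = 0.0419), while 6.44% of all genes were called. For 5 genes (S100a8, S100a9, Ltf, Saa1 and Saa2) the AOM-DSS libraries lay above the untreated ones without overlap, as 21.5% of all genes did in either direction. Neither call held when any 1 of the 6 libraries was left out: adjusted p then ran from 0.0558 to 0.182 for S100a8 and from 0.0511 to 0.194 for S100a9, with log2 changes of 4.36 or more. Saa1 (1.5, adjusted p = 0.112) and Saa2 (1.64, adjusted p = 0.0644) did not pass in this single comparison. Of the mature neutrophil markers 2 of 11 rose, with all 11 higher; of the granule genes 1 of 4 rose, and of 9 skeletal muscle markers 6 fell. Their part in these changes was not tested.

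Tumors of Smox-/- mice had less Saa1 than non-tumor tissue of Smox-/- mice on the same treatment. Saa1 averaged 102 ± 24.3 CPM (SD, n = 3) in the tumors and 1038 ± 760 CPM in non-tumor tissue, and fell by 3.35 on the log2 scale (SE 0.62, adjusted p = 0.00402), a 10.2-fold difference. Saa2 fell by 2.36 (SE 0.55, adjusted p = 0.00774). Both passed with any 1 of the 6 libraries left out, at adjusted p of up to 0.0317 and 0.0455. The other 5 genes did not pass: S100a8 differed by 0.21 and S100a9 by 0.47, Lcn2 by 0.94, Saa3 by -1.96, and Ltf by 3.83 (SE 1.48, adjusted p = 0.0603). Ltf passed without tumor replicate 3 (4.32, adjusted p = 0.0393). The share of all genes called was 24.6%, and 42.5% had groups that did not overlap, as did 3 of the 7. Colonic epithelial markers fell in 6 of 13 genes and goblet cell markers in 5 of 8 in the same comparison, and squamous markers rose in 7 of 17; the part of these in the Saa and Ltf values was not tested.

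Tumors of wild-type mice on AOM-DSS and spermidine showed the calprotectin genes, Lcn2 and Saa3 higher than non-tumor tissue of the same genotype and treatment. Lcn2 averaged 108 ± 40.1 CPM in the tumors and 0.544 ± 0.152 CPM in non-tumor tissue (SD, n = 3), and rose by 7.61 (SE 1.57, adjusted p = 0.00127). S100a8 rose by 4.46 (SE 1.65, adjusted p = 0.0403), S100a9 by 4.42 (SE 1.65, adjusted p = 0.0416) and Saa3 by 3.99 (SE 1.54, adjusted p = 0.0476). Saa1 (-1.18, adjusted p = 0.117), Saa2 (-1.23, adjusted p = 0.0771) and Ltf (1.98, adjusted p = 0.286) did not pass. None of the 7 genes overlapped between the groups, and 55.7% of all genes did not either; 34.4% of all genes were called. Lcn2 passed with any 1 library left out (adjusted p up to 0.01), whereas S100a8, S100a9 and Saa3 then lost their calls in all 6 fits (adjusted p up to 0.129, 0.133 and 0.147). Of the 11 mature neutrophil markers 6 rose here, and of the 13 colonic epithelial markers 10 fell.

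Between the tumor groups, which differ in genotype and spermidine, none of the 7 genes was called by edgeR. Ltf differed by 3.85 (SE 1.48, adjusted p = 0.701) and Saa1 by -1.34 (SE 0.58, adjusted p = 0.811), and these 2 genes alone reached an unadjusted p of 0.05; by DESeq2 the count was 0, and 1098 of 19558 genes reached that unadjusted p. The remaining log2 differences were 0.55 for S100a8, 0.85 for S100a9, -1.11 for Lcn2, -0.77 for Saa2 and 1.15 for Saa3. For S100a9, Ltf, Saa1 and Saa2 the tumor groups did not overlap, a property of 8.26% of all genes, and 0.0614% of all genes were called. The 2 tumor comparisons above were not tested against each other.

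Smox-/- colon, averaged over the 4 non-tumor conditions, had more calprotectin, Lcn2 and Ltf RNA than wild type. S100a8 rose by 3.46 (SE 0.82, adjusted p = 0.016), S100a9 by 3.43 (SE 0.82, adjusted p = 0.0168), Lcn2 by 2.67 (SE 0.64, adjusted p = 0.0166) and Ltf by 2.74 (SE 0.72, adjusted p = 0.0267). Saa3 did not pass at 2.0 (SE 0.70, adjusted p = 0.091), nor did Saa1 at 0.06 (SE 0.28) or Saa2 at -0.12 (SE 0.26). Of all genes 5.78% were called, with a median of 0.0305 against 2.67 for the 7. Without Smox-/- spermidine replicate 2, the only library of its group with over 1 CPM of calprotectin genes, S100a8 (2.06, adjusted p = 0.285) and S100a9 (2.30, adjusted p = 0.144) were lost. Without the tumor-like library, Lcn2 (1.67, adjusted p = 0.0631) and Ltf (1.95, adjusted p = 0.119) were lost. Ltf was also lost without untreated Smox-/- replicate 3 (2.08, adjusted p = 0.0792) and without 5 other libraries (adjusted p up to 0.0563). Saa3 passed without untreated wild-type replicate 3 (2.41, adjusted p = 0.0392), wild-type AOM-DSS replicate 1 (2.64, adjusted p = 0.0258) or Smox-/- AOM-DSS spermidine non-tumor replicate 2 (2.10, adjusted p = 0.0483). Of 10 monocyte and macrophage markers 5 rose, and of 11 mature neutrophil markers 3. Without both libraries that stood apart, S100a8 (3.23), S100a9 (3.02) and Lcn2 (1.90) passed and Ltf (1.88, adjusted p = 0.126) did not.

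In untreated mice the genotypes differed in 3 of the 7 genes. S100a8 rose by 7.49 in the libraries labelled Smox-/- (SE 1.98, adjusted p = 0.0326), S100a9 by 8.10 (SE 2.06, adjusted p = 0.0284) and Ltf by 8.16 (SE 1.83, adjusted p = 0.0215). The same 3 genes did not overlap between the groups, as 28.9% of all genes did not, and 5.95% of all genes were called. Squamous markers rose in 5 of 17 genes, with all 17 higher, mature neutrophil markers in 2 of 11, with all 11 higher, monocyte and macrophage markers in 3 of 10 and goblet cell markers in 2 of 8; their part in these differences was not tested. Lcn2 (2.89, SE 1.25, adjusted p = 0.156), Saa3 (1.82, adjusted p = 0.44), Saa2 (0.76) and Saa1 (0.61) did not pass. None of the 3 calls remained without wild-type replicate 3, the library rich in muscle RNA (S100a8 8.51, adjusted p = 0.117; S100a9 8.36, adjusted p = 0.123; Ltf 7.86, adjusted p = 0.108), or without Smox-/- replicate 2 or 3, and the calprotectin calls were also lost without wild-type replicate 1 or 2. Without both libraries that stood apart, S100a8 (8.50, adjusted p = 0.0924), S100a9 (8.36, adjusted p = 0.0963) and Ltf (7.86, adjusted p = 0.0791) did not pass. Without Smox-/- replicate 3, which holds the squamous RNA, Ltf was 5.61 higher (adjusted p = 0.0983).

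With spermidine none of the 7 genes was called by edgeR. Averaged over the 4 non-tumor strata all 7 were lower with spermidine (Ltf turned to 0.34 higher without untreated Smox-/- replicate 3), by -0.30 (Ltf) to -2.95 (Saa3) on the log2 scale, and the median was -1.46 against -0.00986 for all genes. Saa3 (SE 0.72, adjusted p = 0.154) and Lcn2 (-2.38, SE 0.63, adjusted p = 0.162) came closest. By edgeR 0% of all genes passed and 2448 of 19558 had an unadjusted p under 0.05, a threshold that S100a8, Lcn2, Saa1, Saa2 and Saa3 also met. By DESeq2 369 genes passed, among them Lcn2 (-2.39, adjusted p = 0.00378) and Saa3 (-2.96, adjusted p = 0.00223). With edgeR Lcn2 passed without the tumor-like library (-3.35, adjusted p = 0.0262) and without both libraries that stood apart (-3.13, adjusted p = 0.0355).

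In the remaining comparisons edgeR called none of the 7 genes; at an unadjusted p under 0.05 there were 0 to 5 of them, and by DESeq2 0 to 2. The 5 arose with spermidine in untreated Smox-/-, where 1825 of 19558 genes met that threshold; over these comparisons 820 to 3977 genes did. The share of all genes called was 0.00511% for spermidine in untreated wild type and 0% in untreated Smox-/-, where all 7 genes were lower. It was 0.0818% for genotype under spermidine, 0.0665% for genotype under AOM-DSS and 0.251% for genotype under AOM-DSS with spermidine, where Lcn2 came closest (5.42, SE 1.43, adjusted p = 0.0864). That Lcn2 difference was 1.49 (adjusted p = 0.586) without both libraries that stood apart, and it passed without Smox-/- replicate 2 of that group (6.00, adjusted p = 0.0234). AOM-DSS itself gave 0.0767% in Smox-/-, 1.91% in wild type on spermidine and 0.0205% in Smox-/- on spermidine. Spermidine during AOM-DSS gave 0% in both genotypes, with all 7 genes lower in each. The tests of whether genotype altered an effect called 2.91% of genes for spermidine in untreated mice, 0% for AOM-DSS and 0% for spermidine during AOM-DSS. Ltf came closest to a call in the first (-6.83, SE 2.10, adjusted p = 0.0724) and in the second (-7.51, SE 2.14, adjusted p = 0.0749).

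The pathway lists that follow are read against the shares of all genes called, which were 5.95% between untreated genotypes, 5.78% for mean genotype, 6.44% for AOM-DSS in wild type, 20.9% for mean AOM-DSS, 24.6% for Smox-/- tumors and 34.4% for wild-type tumors. List calls used all libraries, and single values without both libraries that stood apart are not given. Across the alternatives in the closing section, genes called ranged from 1 to 2705 between untreated genotypes. For AOM-DSS in wild type they ranged from 0 to 2760. Cytokines that induce the antimicrobial and acute-phase genes, among them IL-1, IL-17 and IL-23, formed 1 list of 19 genes together with cytokine receptors. Of these, 16 passed the filter. In Smox-/- against wild type 8 rose on average over the non-tumor conditions, including Il17a (3.82, adjusted p = 0.00441), the cytokine of Th17 cells, and Il1a (3.50, adjusted p = 0.00372), an alarmin; in untreated mice 5 rose, and there Il17a had 0 counts in all wild-type libraries and a mean of 0.407 CPM in Smox-/-, while Il1a averaged 0.0726 and 4.26 CPM. In wild-type tumors 9 rose and 2 fell, including Il23a, a subunit of the cytokine that sustains Th17 cells (6.12, adjusted p = 0.000696), and Osm, oncostatin M (4.46, adjusted p = 0.00927). In Smox-/- tumors Il23a rose (3.95, adjusted p = 0.0119) and Il17rc, a receptor chain for IL-17, fell by 1.17 (adjusted p = 0.0176). AOM-DSS raised Tnf in wild type (2.78, adjusted p = 0.0314), and on average Il6 (2.84, adjusted p = 0.0308) and Il23a (1.65, adjusted p = 0.0252).

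The neutrophil chemokines were a list of 7, of which 5 could be tested. Averaged over the non-tumor conditions 3 of 5 rose in Smox-/-, with Cxcl3 at 4.80 (adjusted p = 0.00648) and Cxcl2 at 3.04 (adjusted p = 0.00837). In untreated mice 3 rose; Cxcl3 had 0 counts in all 3 wild-type libraries and a mean of 5.79 CPM in Smox-/-, and Ppbp rose by 9.13 (adjusted p = 0.0319), from 0.0808 to 43.9 CPM with an SD of 71.0. Ppbp also rose in Smox-/- tumors (6.53, adjusted p = 0.0274), and with AOM-DSS on average it fell by 3.04 (adjusted p = 0.0332). Cxcl2 rose in wild-type tumors (4.95, adjusted p = 0.00705) with Cxcl3 (4.61, adjusted p = 0.0338), and with AOM-DSS in wild type (4.96, adjusted p = 0.044), while Cxcl3 rose with AOM-DSS on average (2.86, adjusted p = 0.0396).

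Of 13 tested regulators in the NF-kB, C/EBP and STAT3 routes, 4 rose in untreated Smox-/- mice, where Bcl3, a coactivator of NF-kB, rose by 0.77 (adjusted p = 0.0362) and Nfkb2, an NF-kB subunit, by 0.56 (adjusted p = 0.0287). Rela rose by 0.21 in Smox-/- on average (adjusted p = 0.0359). In wild-type tumors 4 rose and 1 fell of the 13, where 34.4% of all genes were called, with Socs3, the feedback inhibitor of STAT3, at 1.98 (adjusted p = 0.0238) and Cebpa at -0.95 (adjusted p = 0.000947). In Smox-/- tumors Nfkb1 rose by 0.63 (adjusted p = 0.00596) and Rela by 0.56 (adjusted p = 0.00553). AOM-DSS raised 3 on average, with Socs3 at 1.13 (adjusted p = 0.016) and Cebpd at 0.48 (adjusted p = 0.0476), and 0 in wild type alone, where edgeR gave no call among the 13.

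Receptors and partners of the 7 proteins, 14 of 15 tested, moved in both directions. Tlr2, which binds bacterial lipoproteins and serum amyloid A, rose in untreated Smox-/- colon from 14.8 to 48.0 CPM (1.70, adjusted p = 0.0239) and on average (0.99, adjusted p = 0.00625), and Fpr2, a formyl peptide receptor that binds serum amyloid A, rose by 2.36 on average (adjusted p = 0.0216). Slc22a17, the lipocalin-2 receptor, fell by 2.40 in untreated Smox-/- (adjusted p = 0.0242) and by 2.26 with AOM-DSS in wild type (adjusted p = 0.0296). Both falls share the untreated wild-type reference, at 12.1 CPM with an SD of 9.16. With AOM-DSS on average Fpr1 rose by 2.13 (adjusted p = 0.0253) and Fpr2 by 1.69 (adjusted p = 0.0457). Intelectin Itln1, a lectin with lactoferrin-binding activity, rose in wild-type tumors (7.06, adjusted p = 0.000957) and in Smox-/- tumors (5.85, adjusted p = 0.00671); Fpr1 rose in the former (3.44, adjusted p = 0.0391) and Lrp1 fell by 1.11 in the latter (adjusted p = 0.0103).

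Among 9 of 17 other acute-phase genes that could be tested, Lrg1, a leucine-rich glycoprotein of neutrophils and liver, rose in untreated Smox-/- (5.83, adjusted p = 0.0215), in Smox-/- on average (2.60, adjusted p = 0.0108) and with AOM-DSS on average (2.60, adjusted p = 0.00289). Haptoglobin, Hp, rose in Smox-/- on average (3.21, adjusted p = 0.0161) and in wild-type tumors (5.47, adjusted p = 0.016), where 4 of the 9 rose, Hamp for the iron hormone hepcidin among them (4.69, adjusted p = 0.0133). Serpina3n rose with AOM-DSS on average (2.62, adjusted p = 0.00152). In Smox-/- tumors 0 rose and 1 fell: Orm2 had 0 counts in all 3 tumors and a mean of 0.348 CPM in non-tumor tissue.

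Of 14 tested genes of epithelial defence 2 rose in Smox-/- on average and 4 in untreated Smox-/-, and of 13 genes of iron and metal handling 2 and 1. Reg3g and Reg3b, antimicrobial lectins, rose by 5.63 and 5.88 in Smox-/- on average (adjusted p of 0.000406 and 0.00398); Reg3g rose by 5.85 in untreated Smox-/- (adjusted p = 0.0363) and by 7.12 in wild-type tumors (adjusted p = 0.00457), and Nos2, inducible nitric oxide synthase, by 4.24 in untreated Smox-/- (adjusted p = 0.0271). Lyz1, the Paneth cell lysozyme, rose in wild-type tumors (7.20, adjusted p = 0.0077) and in Smox-/- tumors (7.91, adjusted p = 0.0107), and Pigr, which carries IgA across the epithelium, fell by 1.68 in the latter (adjusted p = 0.00982). Slpi, a protease inhibitor, rose with AOM-DSS in wild type (2.91, adjusted p = 0.0433) and on average (1.16, adjusted p = 0.0407). Slc40a1, the iron exporter ferroportin, fell by 2.03 in wild-type tumors (adjusted p = 0.00411) and by 2.08 in Smox-/- tumors (adjusted p = 0.00839). Hmox1, heme oxygenase, rose in wild-type tumors (2.35, adjusted p = 0.00194) and by 0.93 in Smox-/- on average (adjusted p = 0.0285), Trf, transferrin, in Smox-/- tumors (2.93, adjusted p = 0.0168). Tfrc, the transferrin receptor, rose with AOM-DSS in wild type (1.5, adjusted p = 0.018) and on average (0.66, adjusted p = 0.00682), and Slc11a2, the divalent metal importer, with AOM-DSS in wild type (0.77, adjusted p = 0.0467). Slc11a1, the phagosomal metal transporter, rose in untreated Smox-/- (2.41, adjusted p = 0.0444), in Smox-/- on average (1.24, adjusted p = 0.0308) and with AOM-DSS on average (0.99, adjusted p = 0.0398).

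Other S100 genes, 13 of 14 tested, had no call by edgeR in Smox-/- on average, and with AOM-DSS on average 0 rose and 4 fell, S100g (by 3.54, adjusted p = 0.000175) and S100a3 (by 2.34, adjusted p = 0.0293) most. S100a11 rose in untreated Smox-/- (1.32, adjusted p = 0.0431) and in wild-type tumors (1.28, adjusted p = 0.0124). S100b, a glial calcium sensor, was lower in 4 comparisons: it fell by 3.36 in untreated Smox-/- (adjusted p = 0.0378), by 3.26 with AOM-DSS in wild type (adjusted p = 0.0415), by 3.92 in Smox-/- tumors (adjusted p = 0.0109) and by 4.60 in wild-type tumors (adjusted p = 0.00706). S100b in untreated wild type, the shared reference of the first and second of these comparisons, averaged 5.22 CPM with an SD of 4.34. S100a13 fell by 1.14 in Smox-/- tumors (adjusted p = 0.00695).

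The named genes most like each of the 7, by Pearson r of log2 CPM over 30 libraries were taken from 13361 candidates with a mean of at least 1 CPM. For S100a8 they were Cxcl3 (0.925), Mfsd2a (0.916) and Lrg1 (0.91), and for S100a9 Cxcl3 (0.93), Cxcr2 (0.911) and Mcub (0.902). Cxcr2 is one of the mature neutrophil markers above. For Lcn2 they were Inhbb (0.954), Elk3 (0.95) and Ifitm1 (0.946), and 375 candidates had r over 0.8. Ltf was most like Ppbp (0.884), Gna15 (0.88) and Sprr2d (0.87), a cornified envelope gene. Saa1 was most like Cyp2d9 (0.808), Apoc2 (0.794) and Cyp2d34 (0.792), and Saa2 like Apoc2 (0.769), Cyp2d9 (0.753) and Il18 (0.729). Saa3 was most like Dio2 (0.854), Rasip1 (0.852) and Lmcd1 (0.84). These correlations are across libraries that share tissue and groups.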

How the data were processed

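The authors deposited 1 table of estimated counts per gene for 30 libraries; per the submitters' processing notes the tools were fastp, Salmon and DESeq2 and the build GRCm38, without versions, and the labels' protocols name a directional library kit. The deposited values were whole numbers. Genes were kept by filterByExpr (at least 10 counts in enough libraries, 15 in all), scaled by TMM and fitted with edgeR 4.0.16 (R 4.3.3; limma 3.58.1): glmQLFit and glmQLFTest, 1 mean per group, 20 residual degrees of freedom. Log2 CPM used a prior count of 2. The 7 genes and all gene lists were chosen with earlier results of these data known. All 7 genes were tested in every comparison; where none was called the text gives those that came closest and counts. It also names the 2 largest calls of each pathway list where a member was called, the 3 genes most like each member, and Smox. DESeq2 1.42.0 and the other alternatives are in the closing section. Lengths and positions come from the GENCODE annotation of GRCm38. The test between untreated genotypes was checked on simulated data. Library totals were 33060607 to 81011304 counts.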

Additional observations from a re-analysis of the deposited data

How the results depend on the processing

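Each comparison was refitted under 7 alternatives and with each library left out in turn, and no called change of a member turned its sign. Of the changes given that were not called, 10 did, at adjusted p of 0.71 or more: leaving out 1 library gave -0.33 to 2.90 for Lcn2 with AOM-DSS in wild type, -0.14 to 1.83 in Smox-/- and -0.42 to 0.088 in wild type on spermidine, -0.51 to 1.30 for S100a8 with AOM-DSS in Smox-/-, -0.18 to 1.35 for S100a8 and -2.74 to 0.63 for Saa3 in Smox-/- tumors, -0.21 to 0.21 for Saa1 and -0.37 to 0.012 for Saa2 in the mean genotype effect, -0.93 to 0.17 for Saa3 in the mean AOM-DSS effect (0.02 without both libraries that stood apart) and -1.07 to 0.34 for Ltf in the mean spermidine effect. Counts of members called moved by more than 1.5 times as follows. With only the compared groups in the fit, the counts were 0 for genotype in untreated mice and 0 for AOM-DSS in wild type, 2 for AOM-DSS in wild type on spermidine and 7 for wild-type tumors. Without a filter they were 1 for genotype in untreated mice, 0 for AOM-DSS in wild type and 1 for wild-type tumors. Without both libraries that stood apart they were 0 for genotype in untreated mice, 0 for AOM-DSS in wild type, 3 for the mean AOM-DSS effect and 1 for the mean spermidine effect. Summing Saa1 and Saa2 into 1 gene left 1 called in Smox-/- tumors, by construction. DESeq2 called 1 for spermidine in untreated wild type, 1 for AOM-DSS in Smox-/- with and 1 without spermidine, 1 for genotype under AOM-DSS with spermidine, 2 for the mean spermidine effect, 2 for genotype by spermidine and 1 for genotype by AOM-DSS. Leaving out 1 library gave 0 to 3 members for genotype in untreated mice, 0 to 0 for AOM-DSS in wild type, 0 to 1 for genotype under AOM-DSS with spermidine, 1 to 1 for wild-type tumors, 1 to 5 for the mean genotype effect, 3 to 5 for the mean AOM-DSS effect, 0 to 1 for the mean spermidine effect and 0 to 2 for genotype by spermidine. Counts over the whole table ranged, across the 7 alternatives, from 1 to 2705 around 1164 in untreated genotypes, from 0 to 2760 around 1260 for AOM-DSS in wild type, and from 780 to 2148 around 1131 for the mean genotype effect. Of 350 alternative group means 349 stayed within 1 SD of the group. Where 1 library of 3 was left out, the mean could not move by 1 SD of those 3. Only the means from the other alternatives could have passed that limit, and the spread between mice within groups is given above. The 79 list results kept their sign in 1525 refits and their call in 1180. No paired analysis was possible because the labels give no shared replicate numbers. Where a group is left with 2 libraries its spread is assumed to be that of the others.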
